A study of Mus musculus with 6 samples.

Results

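The 34 genes described here encode the enzymes and transporters that carry glucose to lactate and around the pentose phosphate pathway, chosen by name and not by their values, out of the 55401 genes of the deposited table, with earlier results of these data known. They fall into 8 groups by role: glucose transporters, hexokinases, the other enzymes of upper glycolysis, the enzymes that make and break fructose 2,6-bisphosphate, lower glycolysis, pyruvate and lactate handling, and the oxidative and non-oxidative arms of the pentose phosphate pathway. Messenger RNA was sequenced from hepatic stellate cells of S100a16+/- mice, heterozygous for the gene of the calcium-binding protein S100a16 (the labels do not describe the allele), and of WT mice, with 3 libraries per genotype, all on the C57BL/6J strain. Cells of both genotypes had been isolated from the liver and kept for 7 days in medium with fetal bovine serum (FBS), which turns stellate cells into myofibroblasts. The labels give neither age nor sex and do not say whether the libraries came from separate animals, so a p-value reflects only how these samples vary. Among libraries other than S100a16+/- replicate 3, whose sex-linked transcripts differed (below), this may be technical variation.

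Glycolysis splits glucose into pyruvate for a net gain of ATP, and its pace is set at glucose uptake, at hexokinase, at phosphofructokinase and at pyruvate kinase. Hexokinase makes glucose 6-phosphate, which either continues down glycolysis or enters the pentose phosphate pathway, whose oxidative arm reduces NADP+ to NADPH and whose non-oxidative arm returns sugar phosphates to glycolysis. Stellate cells that turn into myofibroblasts raise glycolysis, and macrophages, which share the liver with them, raise it when they are activated.

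The level of S100a16 was 18.0, 17.7 and 30.0 FPKM (a level scaled to gene length and library size) in S100a16+/- replicates 1 to 3, against 57.7, 58.8 and 56.8 FPKM in the WT libraries. The log2 change, S100a16+/- over WT, was -1.35 ± 0.21 SE over 6 libraries (edgeR adjusted p = 0.0313) and -1.63 without S100a16+/- replicate 3 (edgeR adjusted p = 4.04e-05). Every S100a16+/- library lay below every WT library. S100a16+/- replicate 3 stood apart: its log2(FPKM + 1) values across tested genes correlated with S100a16+/- replicates 1 and 2 at r = 0.930 and 0.929, against 0.987 between those 2 replicates and 0.981 to 0.985 between WT libraries. The female-specific Xist was at 32.2 FPKM in that library and at most at 0.0323 FPKM in the others, and the Y-linked Ddx3y was at 0.0102 FPKM there and between 12.1 and 15.8 FPKM elsewhere. By these transcripts that library was female and the others male, so it did not share an animal with S100a16+/- replicates 1 and 2. The S100a16+/- group thus mixed sexes and the WT group did not. The 12 stellate cell and myofibroblast markers, which include Col1a1, summed to 1231, 1197 and 188 FPKM in the S100a16+/- libraries, against 1030 to 1147 FPKM in WT. Libraries held 61979103 to 76291481 counts. Markers of other liver cells were also present, and those of macrophages summed to more FPKM than the stellate cell markers in every library. The 14 macrophage and Kupffer cell markers summed to 16634, 17865 and 12596 FPKM, against 9751 to 10277 FPKM in WT. The 12 liver endothelial markers summed to 943, 893 and 1981 FPKM, against 1637 to 1796 FPKM in WT, and the 10 hepatocyte markers to 10, 9.99 and 509 FPKM, against 72.0 to 110 FPKM in WT. None of the markers in these 4 lists was at 0 in all libraries. In such bulk samples, fewer cells of a type and less RNA per cell cannot be told apart, and the log2 changes of the 34 genes are given with and without S100a16+/- replicate 3.

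Of the 34 genes, 5 rose in S100a16+/- cells over all 6 libraries and none fell. The 5 were the glucose transporter genes Slc2a1 and Slc2a6, the hexokinase genes Hk1 and Hk2, and the phosphofructokinase gene Pfkp, with log2 changes between 0.27 and 2.31. They make up 14.7% of the 34 genes, against 2.85% of the 12766 tested genes that were called higher and 1.61% called lower, a call being an edgeR adjusted p under 0.05 over all tested genes. At an unadjusted p under 0.05 edgeR had 14 of the 34 genes higher and 1 lower, against 12.4% and 9.54% of all tested genes. DESeq2 called 12 higher and 1 lower, against 8.81% and 5.98% of all tested genes. On log2(FPKM + 1), limma called 3 higher and 0 lower, against 1.94% and 1.9%. The median log2 change was 0.26 over the 34 genes and 0.00 over all tested genes. All 34 genes were tested, and 33 of them reached 1 FPKM in all 6 libraries, the exception being Slc2a3.

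With S100a16+/- replicate 3 left out, 21 of the 34 genes (61.8%) were called higher by edgeR, the 5 above among them, and Pfkm and Pdk1 (5.88%) were called lower. Of all 12601 genes tested in those 5 libraries, 15.8% were called higher and 16.5% lower. The median log2 change of the 34 genes was then 0.30, against 0.00 over all tested genes. The calls over 6 libraries were sensitive to each library: without WT replicate 1, 2 or 3 edgeR called none of the 34 genes, and without S100a16+/- replicate 1 or 2 it called only Slc2a6. At an unadjusted p under 0.05, 11 of the 34 genes were higher without each WT library, against 8.9%, 8.65% and 8.62% of all tested genes. By the same measure 1, 1 and 2 were lower, against 6.13%, 6.43% and 5.98%. In 13 genes every S100a16+/- library lay above every WT library, and in 2 every one lay below, by FPKM; over all tested genes these shares were 12.5% above and 18.9% below.

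**Figure D1:**
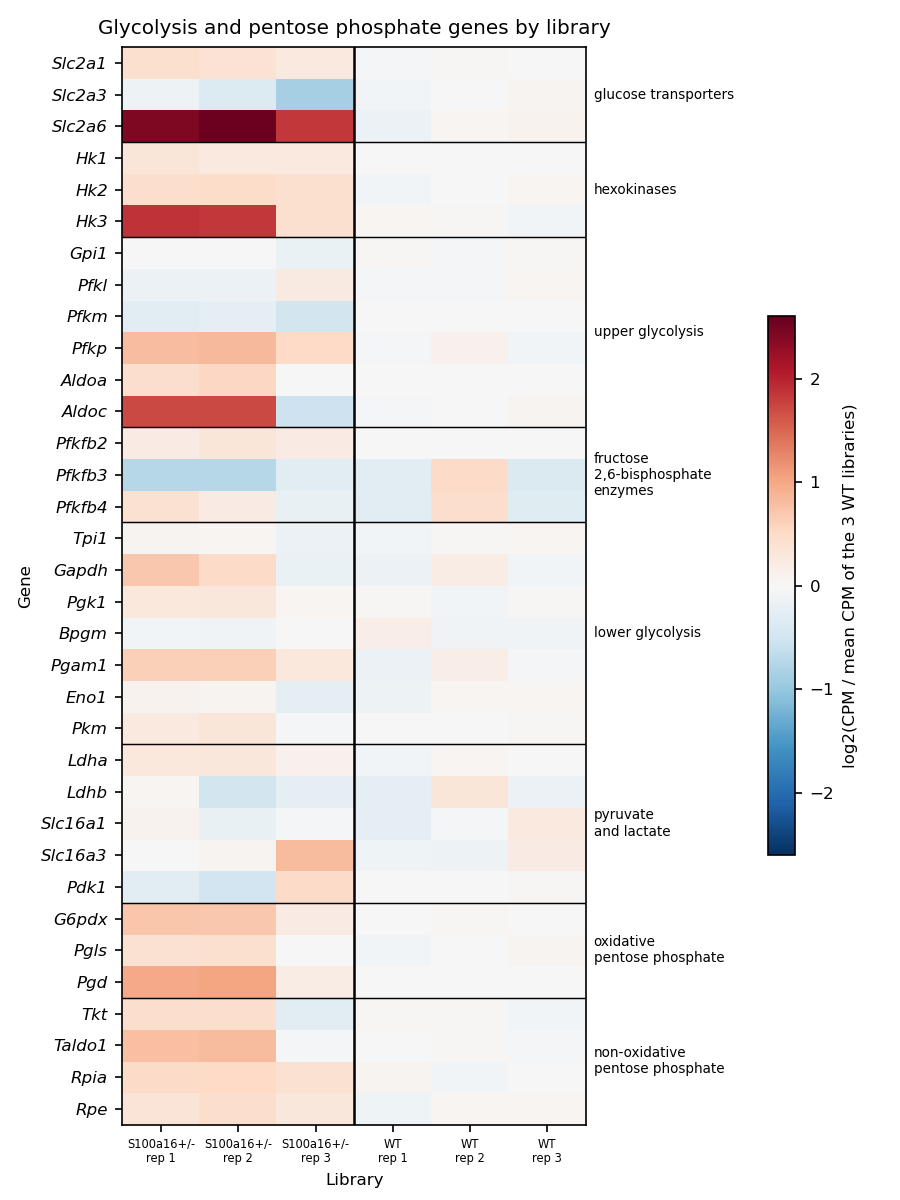
Log2 ratio of CPM (counts scaled to library size) to the mean of the 3 WT libraries for each of the 34 genes (down) in each library (across; S100a16+/- replicates 1 to 3, then WT replicates 1 to 3), grouped by role. Red is above and blue below the WT mean; Slc2a6 is red in all 3 S100a16+/- libraries, while Hk3, Aldoc, Pgd and Taldo1 are far above the WT mean only in S100a16+/- replicates 1 and 2.

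The promoters of the 5 genes that rose, and that of G6pdx, which opens the pentose phosphate pathway, are shown because transcription of glycolytic genes is classically driven through the hypoxia response element, with the cores ACGTG and GCGTG, and pentose phosphate genes through the antioxidant response element, with the core TGACNNNGC. Each run is the 250 bases upstream of a RefSeq transcript start (GRCm38.p6), 5′ to 3′ on the gene's own strand, with matches to any of the 3 motifs in capitals, a match on the other strand being shown as its reverse complement. The windows are Slc2a1 at chr4:119108495-119108744 on the plus strand, Slc2a6 at chr2:27027999-27028248, Hk1 at chr10:62379909-62380158 (upstream start) and chr10:62340422-62340671 (downstream start), Hk2 at chr6:82774455-82774704, Pfkp at chr13:6648772-6649021 and G6pdx at chrX:74428881-74429130, the last 6 on the minus strand.
Slc2a1: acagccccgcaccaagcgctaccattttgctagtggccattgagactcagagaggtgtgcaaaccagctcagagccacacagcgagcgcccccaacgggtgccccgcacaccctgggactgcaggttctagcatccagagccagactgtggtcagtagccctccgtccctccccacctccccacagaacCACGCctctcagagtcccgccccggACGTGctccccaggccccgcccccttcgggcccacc
Slc2a6: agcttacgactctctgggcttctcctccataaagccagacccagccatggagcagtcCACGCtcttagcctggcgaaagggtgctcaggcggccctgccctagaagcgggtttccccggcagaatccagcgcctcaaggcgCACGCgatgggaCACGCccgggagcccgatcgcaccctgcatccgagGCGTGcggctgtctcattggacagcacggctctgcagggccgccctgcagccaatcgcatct
Hk1 upstream start: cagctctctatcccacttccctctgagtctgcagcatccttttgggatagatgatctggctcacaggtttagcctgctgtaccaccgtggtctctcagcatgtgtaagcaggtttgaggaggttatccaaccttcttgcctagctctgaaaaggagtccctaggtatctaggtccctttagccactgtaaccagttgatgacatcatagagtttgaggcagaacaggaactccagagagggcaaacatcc
Hk1 downstream start: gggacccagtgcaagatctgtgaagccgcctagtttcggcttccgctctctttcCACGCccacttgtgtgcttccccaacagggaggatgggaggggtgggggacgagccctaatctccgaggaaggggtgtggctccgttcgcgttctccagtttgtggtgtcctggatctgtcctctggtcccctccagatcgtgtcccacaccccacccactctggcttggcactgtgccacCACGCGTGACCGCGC
Hk2: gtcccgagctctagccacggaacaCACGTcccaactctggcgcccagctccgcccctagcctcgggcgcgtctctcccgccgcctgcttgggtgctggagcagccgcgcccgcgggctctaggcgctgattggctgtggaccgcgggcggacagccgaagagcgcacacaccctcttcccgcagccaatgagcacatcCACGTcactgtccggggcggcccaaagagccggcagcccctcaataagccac
Pfkp: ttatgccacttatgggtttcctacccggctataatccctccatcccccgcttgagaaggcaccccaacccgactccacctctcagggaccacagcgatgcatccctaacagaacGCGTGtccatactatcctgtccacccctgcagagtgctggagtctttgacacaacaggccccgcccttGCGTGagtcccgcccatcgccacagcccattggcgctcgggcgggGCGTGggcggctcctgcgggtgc
G6pdx: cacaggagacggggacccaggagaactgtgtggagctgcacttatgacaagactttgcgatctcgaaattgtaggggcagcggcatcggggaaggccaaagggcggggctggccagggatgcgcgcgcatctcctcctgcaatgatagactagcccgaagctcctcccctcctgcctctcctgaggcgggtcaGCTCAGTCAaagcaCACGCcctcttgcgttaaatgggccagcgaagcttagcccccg
The Slc2a6 window held 4 matches to GCGTG, the Pfkp window 3, the Hk2 window 2 to ACGTG, and the Slc2a1 window 1 of each. The downstream Hk1 start had 3 matches to GCGTG and 1 to TGACNNNGC, while the upstream one had none of the 3 motifs. RefSeq windows were found for 33 of the 34 genes, 49 windows in all. ACGTG or GCGTG was in 79.6% of these windows, against 38.6% of the 32851 promoter windows of all genes, and TGACNNNGC was in 8.16%, against 10.2%. Windows of the same gene can overlap, and the windows of these genes were richer in G and C, with a median of 59.6% against 52.4%. A match is a run of letters and not a bound site.

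Of the 3 glucose transporter genes, 2 rose, against 2.85% of all tested genes, and Slc2a6 had the largest log2 change of all 34 genes. Slc2a6 encodes GLUT6, a transporter that sits on intracellular membranes and is induced in activated mouse macrophages. The gene (ENSMUSG00000036067, chromosome 2, 27021363 to 27027998, minus strand, as the deposited table gives it) overlapped no other gene. It was at 10.6, 11.5 and 7.13 FPKM in S100a16+/- replicates 1 to 3, against 1.84, 2.10 and 2.17 FPKM in the WT libraries. All 3 S100a16+/- libraries were above all WT libraries, at 521%, 562% and 350% of the WT mean, and the log2 change was 2.31 ± 0.21 SE, or 4.94-fold (edgeR adjusted p = 0.00941). Without S100a16+/- replicate 3 it was 2.5 (edgeR adjusted p = 7.65e-05), and the adjusted p reached 0.0805 when a WT library was left out. Of 16 alternative fits 12 called it. Slc2a1 encodes GLUT1, the basal glucose transporter of most cells. Its level was 33.3, 31.9 and 30.1 FPKM in S100a16+/- cells, against 25.2, 26.6 and 25.8 FPKM in WT cells. The groups did not overlap, and the log2 change was 0.35 ± 0.07 SE (edgeR adjusted p = 0.0479), or 0.40 without S100a16+/- replicate 3 (edgeR adjusted p = 0.00164). Of 16 alternative fits only 5 called Slc2a1: library totals without TMM (edgeR adjusted p = 0.0625), limma on log2(FPKM + 1) (adjusted p = 0.0798), filterByExpr (edgeR adjusted p = 0.0699) and no filter (edgeR adjusted p = 0.113) were among those that did not. Slc2a3, the gene of the high-affinity transporter GLUT3, was the least abundant of the 34, at 1.19, 1.01 and 0.725 FPKM in S100a16+/- cells and 1.28, 1.35 and 1.42 FPKM in WT cells. Every S100a16+/- library was below every WT library, but its log2 change of -0.42 was not called (edgeR adjusted p = 0.298), nor was that of -0.23 without S100a16+/- replicate 3 (edgeR adjusted p = 0.181).

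The transporter genes were also set side by side as shares of their summed FPKM. Slc2a6 made up 23.6%, 25.9% and 18.8% of the summed FPKM of the 3 genes in the S100a16+/- libraries, against 6.5%, 7.01% and 7.39% in WT, and Slc2a1 made up 73.8%, 71.9% and 79.3%, against 89.0%, 88.5% and 87.8%. With 3 libraries per genotype an exact two-sided permutation test over libraries cannot give a p below 0.1, and both shares were at that value (0.15 after Benjamini-Hochberg adjustment over the 15 shares tested). In all, 10 of the 15 shares were at it. Shares of a family are tied to each other, and Slc2a1 had a lower share although its own FPKM rose. The share of Slc2a6 was 15.8 percentage points higher over 6 libraries and 17.7 without S100a16+/- replicate 3, and that of Slc2a1 differed by -13.4 and -15.6 points. Without that library the smallest possible p is 0.2 (exact permutation test), which both shares had.

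Hk1 and Hk2, which encode the hexokinases that bind mitochondria, rose by small and even amounts, and Hk3, a hexokinase gene known from myeloid cells, differed widely between the S100a16+/- libraries. Hk1 was at 17.1, 16.3 and 16.7 FPKM in S100a16+/- cells, against 14.4, 14.2 and 14.4 FPKM in WT cells, a log2 change of 0.27 ± 0.05 SE over 6 libraries (edgeR adjusted p = 0.0474), and of 0.29 when S100a16+/- replicate 3 was left out (edgeR adjusted p = 0.00333). Hk2 was at 15.9, 16.1 and 15.9 FPKM, against 11.5, 12.3 and 12.6 FPKM in WT cells, a log2 change of 0.45 ± 0.06 SE over 6 libraries (edgeR adjusted p = 0.0218), which was 0.46 with S100a16+/- replicate 3 left out (edgeR adjusted p = 0.00189). Of 16 alternative fits only 4 called Hk1 and 9 called Hk2. Library totals without TMM (edgeR adjusted p = 0.0802), limma on log2(FPKM + 1) (adjusted p = 0.106) and filterByExpr (edgeR adjusted p = 0.0801) did not call Hk1, and testing without a filter called neither gene (edgeR adjusted p = 0.131 for Hk1 and 0.0529 for Hk2). In both genes S100a16+/- replicate 3 was as far above the WT mean as the other 2 S100a16+/- libraries, with an excess of 102% and 98.3% of theirs. Hk3 was the most abundant hexokinase gene, at 81.0, 78.5 and 29.8 FPKM in S100a16+/- cells, against 23.6, 23.4 and 21.7 FPKM in WT cells. All 3 S100a16+/- libraries were above WT, but the excess of replicate 3 was 12.2% of that of the others. Its log2 change of 1.52 ± 0.39 SE was not called by edgeR over 6 libraries (edgeR adjusted p = 0.091). It was 1.86 and called without S100a16+/- replicate 3 (edgeR adjusted p = 4.04e-05). Over 6 libraries DESeq2 called Hk3 higher (DESeq2 adjusted p = 0.00102), and limma on log2(FPKM + 1) did not (limma adjusted p = 0.13). Hk3 made up 71.0%, 70.8% and 47.7% of hexokinase FPKM in the S100a16+/- libraries, against 47.7%, 46.9% and 44.6% in WT (exact permutation p = 0.1, the smallest possible). This difference was 16.8 percentage points over 6 libraries and 24.5 without S100a16+/- replicate 3. The macrophage markers had median log2 ratios to the WT mean of 0.63, 0.69 and 0.33 in the same 3 libraries, and edgeR called 5 of the 14 higher and none lower over 6 libraries, against 2.85% and 1.61% of all tested genes. Without S100a16+/- replicate 3 it called 8 higher and 3 lower, against 15.8% and 16.5%. Their part in the results of all 8 role groups was not tested.

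**Figure D2:**
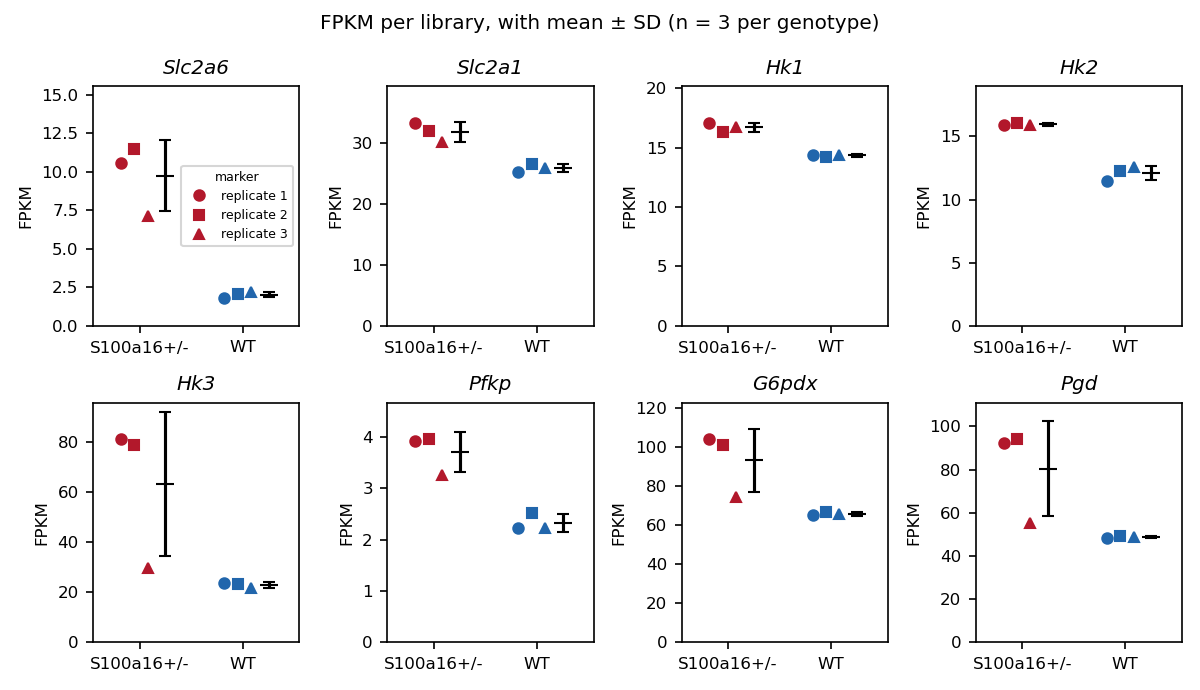
FPKM (vertical axis, from 0) of 8 genes in each library, S100a16+/- in red on the left and WT in blue on the right of each panel; marker shapes give the replicate number, and the bar gives mean ± SD (n = 3). Hk1 and Hk2 are even within each genotype, whereas in Hk3, Pgd and G6pdx S100a16+/- replicate 3 sits close to WT.

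Among the 6 genes between hexokinase and the triose phosphates, edgeR called Pfkp higher over 6 libraries and none of the others. At an unadjusted p under 0.05, 1 was higher and 1 lower. DESeq2 called 1 higher and 1 lower, and limma on log2(FPKM + 1) called 1 and 0. Of all tested genes edgeR called 2.85% higher and 1.61% lower, and 12.4% and 9.54% had an unadjusted p under 0.05. DESeq2 called 8.81% and 5.98% of them, and limma 1.94% and 1.9%. The phosphofructokinases catalyse the committed step of glycolysis. Pfkp, which encodes the platelet type, was at 3.92, 3.96 and 3.26 FPKM in S100a16+/- cells, against 2.22, 2.53 and 2.22 FPKM in WT cells, a log2 change of 0.73 ± 0.11 SE over 6 libraries (edgeR adjusted p = 0.0313), and 0.82 without S100a16+/- replicate 3 (edgeR adjusted p = 0.00102). Of 16 alternative fits 8 called it, and testing without a filter did not (edgeR adjusted p = 0.0568). Pfkm, the muscle type, was at 7.37, 7.47 and 6.53 FPKM, against 9.23, 9.29 and 9.46 FPKM in WT cells, so that the groups did not overlap in the other direction. Its log2 change of -0.34 ± 0.09 SE was not called by edgeR over 6 libraries (edgeR adjusted p = 0.0926). It was -0.27 and called without S100a16+/- replicate 3 (edgeR adjusted p = 0.0176). Over 6 libraries DESeq2 called Pfkm lower (DESeq2 adjusted p = 0.00669), and limma on log2(FPKM + 1) did not (limma adjusted p = 0.0614). Of 16 alternative fits 3 called it. Pfkl, the liver type, was the most abundant of the 3, at 15.1, 15.1 and 20.1 FPKM against 17.2, 17.1 and 18.3 FPKM in WT, with overlapping groups and log2 changes of -0.01 over 6 libraries and -0.15 without S100a16+/- replicate 3, neither called. Pfkp made up 14.8%, 14.9% and 10.9% of phosphofructokinase FPKM in S100a16+/- cells, against 7.76%, 8.76% and 7.43% in WT cells, and Pfkm 27.9%, 28.2% and 21.8%, against 32.2%, 32.1% and 31.6% (exact permutation p = 0.1 for each, the smallest possible). These differences were 5.57 and -6 percentage points, and 6.9 and -3.93 without S100a16+/- replicate 3. Pfkp overlaps Pitrm1 on the opposite strand, whose counts were 213% of those of Pfkp and whose log2 change was -0.17, and Pfkm overlaps Senp1, at 117% of its counts and a log2 change of -0.20. The sources used here do not state whether counting used the strand, so reads of such a pair cannot be told apart. Hk3, Gapdh, G6pdx and Rpe also overlap a gene on the opposite strand, which held 10.7%, 24.8%, 11.5% and 33.3% of their counts.

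Gpi1, the gene of glucose 6-phosphate isomerase, was at 62.9 to 69.7 FPKM in S100a16+/- cells and at 69.6 to 74.0 FPKM in WT cells, with log2 changes of -0.05 over 6 libraries and 0.00 without S100a16+/- replicate 3. The aldolase genes, whose enzymes cleave fructose 1,6-bisphosphate, were high in S100a16+/- replicates 1 and 2 only. Aldoa was at 330, 348 and 245 FPKM in S100a16+/- cells, against 249, 248 and 255 FPKM in WT cells. The much scarcer Aldoc was at 4.99, 4.94 and 1.06 FPKM, against 1.51, 1.57 and 1.65 FPKM in WT cells. In both genes S100a16+/- replicate 3 lay below every WT library, so the groups overlapped and neither was called over 6 libraries (edgeR adjusted p = 0.257 for Aldoa and 0.263 for Aldoc). Without that library their log2 changes were 0.50 (edgeR adjusted p = 0.00064) and 1.72 (edgeR adjusted p = 0.00017).

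The bifunctional PFKFB enzymes set the level of the strongest activator of phosphofructokinase, and none of their 3 genes was called by edgeR over 6 libraries (1 was higher at an unadjusted p under 0.05, and DESeq2 called 1 and limma none). By these measures 12.4%, 8.81% and 1.94% of all tested genes were higher. Pfkfb2 was at 2.52, 2.69 and 2.58 FPKM in S100a16+/- cells, against 2.26, 2.29 and 2.25 FPKM in WT cells. These groups did not overlap, and the log2 change of 0.25 ± 0.08 SE (edgeR adjusted p = 0.134) was 0.26 and called without S100a16+/- replicate 3 (edgeR adjusted p = 0.0357). Pfkfb3, whose enzyme has the strongest bias towards synthesis, was at 6.19, 6.11 and 8.53 FPKM, against 8.70, 15.2 and 8.29 FPKM in WT cells, where replicate 2 stood far above the other libraries. Pfkfb4 followed the same WT pattern, with 4.19 FPKM in WT replicate 2 and 2.5 and 2.48 FPKM in the other WT libraries, against 3.85, 3.37 and 2.63 FPKM in S100a16+/- cells. Log2 changes were -0.58 for Pfkfb3 and 0.16 for Pfkfb4 over 6 libraries, and -0.74 and 0.30 without S100a16+/- replicate 3, none of them called.

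None of the 7 genes from triose phosphate isomerase to pyruvate kinase was called by edgeR over 6 libraries. At an unadjusted p under 0.05 only Pgam1 was higher, DESeq2 called 1 gene of the group and limma none, and 4 genes were called higher without S100a16+/- replicate 3. Of all tested genes 12.4%, 8.81% and 1.94% were higher by the first 3 measures, and 15.8% without that library. The lower glycolysis group held the most abundant of the 34 genes, and its summed FPKM was 1019, 1028 and 858 in the S100a16+/- libraries, against 847, 880 and 893 in WT. Pkm, which encodes the muscle-type pyruvate kinase, had the highest mean FPKM of all 34 genes, at 372, 387 and 314 FPKM, against 322, 323 and 335 FPKM in WT cells. Its groups overlapped, with a log2 change of 0.18 (edgeR adjusted p = 0.409), or 0.28 without S100a16+/- replicate 3 (edgeR adjusted p = 0.00444). Pgk1, whose product phosphoglycerate kinase makes the first ATP of glycolysis, was at 288, 290 and 255 FPKM, against 253, 238 and 256 FPKM in WT cells, with log2 changes of 0.21 over 6 libraries and 0.28 without replicate 3 (edgeR adjusted p = 0.248 and 0.00653). Pgam1, the gene of phosphoglycerate mutase, was at 148, 148 and 120 FPKM, against 89.8, 114 and 98.4 FPKM in WT cells. All S100a16+/- libraries were above all WT libraries, and the log2 change of 0.51 ± 0.13 SE missed the threshold over 6 libraries (edgeR adjusted p = 0.0953) but not without S100a16+/- replicate 3, where it was 0.62 (edgeR adjusted p = 0.00712). The genes of triose phosphate isomerase (Tpi1), bisphosphoglycerate mutase (Bpgm) and enolase (Eno1) had log2 changes between -0.05 and 0.00 with overlapping groups, and of 0.07, -0.08 and 0.08 without S100a16+/- replicate 3, none of them called.

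The gene of glyceraldehyde 3-phosphate dehydrogenase, Gapdh, was at 29.3, 25 and 16.2 FPKM in S100a16+/- cells, against 16.8, 21.5 and 17.9 FPKM in WT cells, well below Pgk1, the next enzyme of the pathway. The table listed 77 genes whose transcripts are near-identical copies of it (at least 95% identity over at least 300 bases), and these held most of the counts. The Gapdh entry held 9.78%, 8.34% and 7.39% of the counts of gene and copies in the S100a16+/- libraries, against 7.13%, 8.86% and 7.30% in WT. Gene and copies together came to 1376, 1378 and 1003 CPM in S100a16+/- cells, against 1082, 1115 and 1127 CPM in WT cells. S100a16+/- replicate 3 was the lowest library and the other 2 the highest, the same layout as for Aldoa and Pkm (exact two-sided permutation p = 0.4). The log2 change of the Gapdh entry was 0.38 over 6 libraries (edgeR adjusted p = 0.41), 0.60 without S100a16+/- replicate 3 (edgeR adjusted p = 0.016), and 0.23 over 6 libraries with the copies added (edgeR adjusted p = 0.426). The values of Gapdh, and less so of Eno1 (3 copies with 16.5% of its counts) and Pgam1 (1 copy with 14.6%), are uncertain for this reason.

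None of the 5 genes of pyruvate and lactate handling was called by edgeR over 6 libraries (1 was higher at an unadjusted p under 0.05, DESeq2 and limma called none). Their median log2 change was -0.03. At an unadjusted p under 0.05, 12.4% of all tested genes were higher. Ldha, whose subunit favours lactate production, was at 139, 140 and 127 FPKM in S100a16+/- cells, against 113, 125 and 121 FPKM in WT cells. The groups did not overlap, and the log2 change of 0.23 ± 0.08 SE (edgeR adjusted p = 0.177) was 0.29 and called without S100a16+/- replicate 3 (edgeR adjusted p = 0.00789). Ldhb, the heart-type subunit, ran from 19.4 to 28.1 FPKM in S100a16+/- cells and from 24 to 35.5 FPKM in WT cells, with overlapping groups and log2 changes of -0.21 over 6 libraries and -0.19 without S100a16+/- replicate 3. The lactate exporter gene Slc16a3 (MCT4) and the pyruvate dehydrogenase kinase gene Pdk1, both known targets of hypoxia signalling, were highest of all libraries in S100a16+/- replicate 3. Slc16a3 was at 5.96, 6.25 and 10.9 FPKM, against 5.74, 5.75 and 7.30 FPKM in WT cells. Pdk1 was at 4.17, 3.53 and 7.28 FPKM, against 5.22, 5.23 and 5.38 FPKM in WT cells. The log2 change of Slc16a3 was 0.35 over 6 libraries (edgeR adjusted p = 0.49) and 0.03 without S100a16+/- replicate 3. Pdk1 was below WT in 2 S100a16+/- libraries and above it in the third, and its log2 change of -0.03 over 6 libraries became -0.39 without S100a16+/- replicate 3 (edgeR adjusted p = 0.0175). The monocarboxylate transporter gene Slc16a1 (MCT1) was at 3.20 to 3.89 FPKM in S100a16+/- cells and 3.22 to 4.58 FPKM in WT cells, with log2 changes of -0.04 over 6 libraries and -0.05 without S100a16+/- replicate 3.

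**Figure D3:**
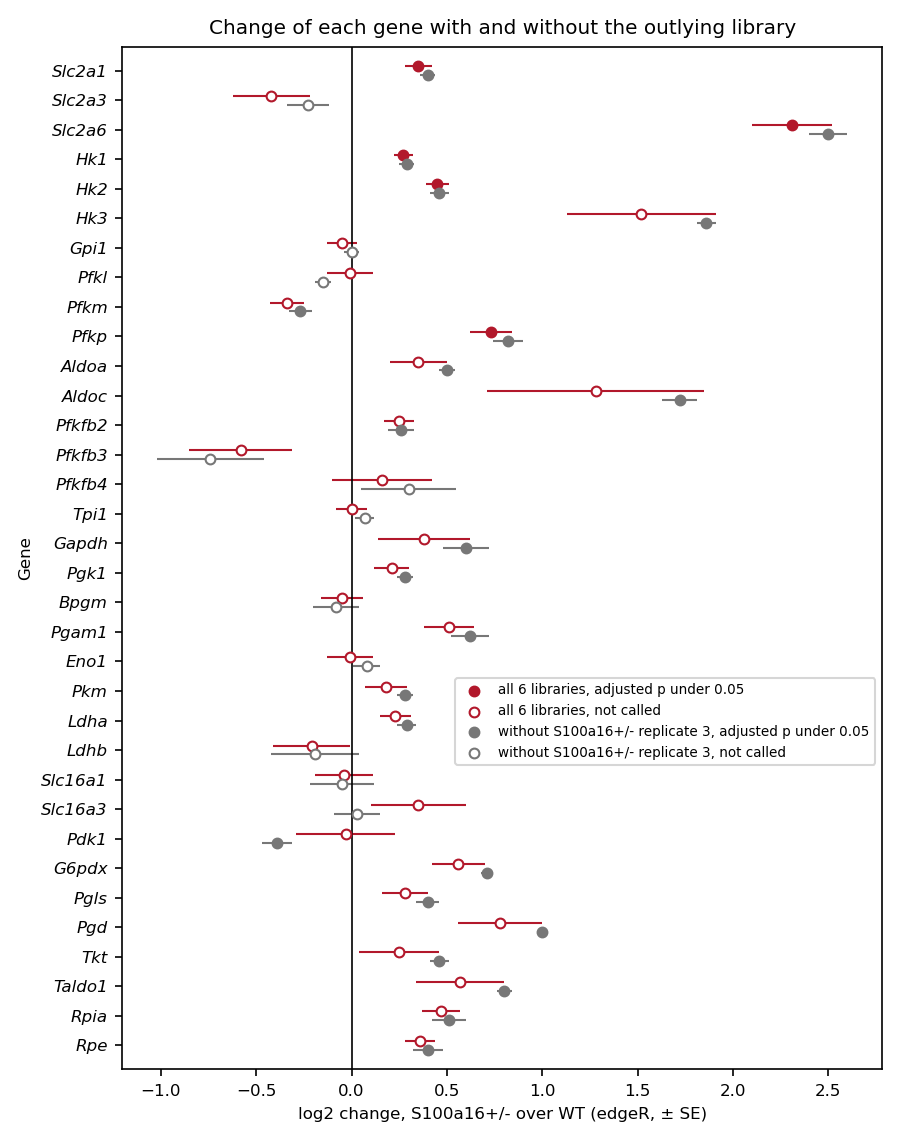
Log2 change, S100a16+/- over WT, of each of the 34 genes with its SE (edgeR), over all 6 libraries (red) and without S100a16+/- replicate 3 (grey); filled points have an adjusted p under 0.05. Over 6 libraries 5 genes are filled, all above 0, and without that library 21 are filled above 0 and 2 below.

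None of the 7 pentose phosphate genes was called by edgeR over 6 libraries, with adjusted p between 0.0581 and 0.538, and all 7 were called higher without S100a16+/- replicate 3. At an unadjusted p under 0.05, 5 of the 7 were higher over 6 libraries (2 oxidative and 3 non-oxidative), DESeq2 called 2 in each arm and limma none. Of all tested genes, edgeR called 15.8% higher without S100a16+/- replicate 3. Over 6 libraries 12.4% of all tested genes were higher at an unadjusted p under 0.05, 8.81% by DESeq2 and 1.94% by limma. G6pdx encodes glucose 6-phosphate dehydrogenase, the entry enzyme that makes the first NADPH, and was at 104, 101 and 74.6 FPKM in S100a16+/- cells, against 65.0, 66.8 and 65.5 FPKM in WT cells. Pgd encodes 6-phosphogluconate dehydrogenase, which makes the second NADPH, and was at 92.2, 94.1 and 55.1 FPKM, against 48.3, 49.4 and 48.6 FPKM in WT cells. In both genes all S100a16+/- libraries were above all WT libraries, but the excess of replicate 3 over the WT mean was 24% and 14.2% of that of the other 2. The log2 change of G6pdx was 0.56 ± 0.14 SE over 6 libraries (edgeR adjusted p = 0.0946) and 0.71 without S100a16+/- replicate 3 (edgeR adjusted p = 0.000137). That of Pgd was 0.78 ± 0.22 SE (edgeR adjusted p = 0.115) and 1.0 (edgeR adjusted p = 5.21e-05). Pgls, the gene of the lactonase between them, was at 10.5, 10.6 and 8.27 FPKM, against 7.89, 8.38 and 8.73 FPKM in WT cells, so S100a16+/- replicate 3 lay within the WT range. Its log2 change was 0.28 over 6 libraries (edgeR adjusted p = 0.253), which became 0.40 with replicate 3 left out (edgeR adjusted p = 0.00658).

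In the non-oxidative arm the 2 abundant genes and the 2 scarce ones differed in how S100a16+/- replicate 3 behaved. Taldo1, the transaldolase gene, was at 222, 227 and 129 FPKM in S100a16+/- cells, against 135, 139 and 132 FPKM in WT cells. Tkt, the transketolase gene, was at 63.4, 62.9 and 38.9 FPKM, against 48.8, 49.4 and 45.7 FPKM in WT cells. In both, S100a16+/- replicates 1 and 2 were above every WT library and replicate 3 was below every WT library. Their log2 changes were 0.57 and 0.25 over 6 libraries (edgeR adjusted p = 0.223 and 0.538), and 0.80 and 0.46 without replicate 3 (edgeR adjusted p = 0.000151 and 0.00133). Rpia and Rpe encode the isomerase and the epimerase that interconvert pentose phosphates. Rpia was at 1.95, 1.97 and 1.87 FPKM, against 1.5, 1.38 and 1.44 FPKM in WT cells. Rpe was at 11.1, 11.9 and 11 FPKM, against 8.44, 9.50 and 9.43 FPKM in WT cells. All 3 S100a16+/- libraries were close together and above WT in both, with log2 changes of 0.47 ± 0.10 SE and 0.36 ± 0.08 SE over 6 libraries (edgeR adjusted p = 0.0581 and 0.0708), and 0.51 and 0.40 without S100a16+/- replicate 3 (edgeR adjusted p = 0.0111 and 0.0144). The summed FPKM of the non-oxidative arm was 299, 304 and 181 in the S100a16+/- libraries, against 188 to 199 in WT, and that of the oxidative arm 207, 206 and 138, against 121 to 125.

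**Figure D4:**
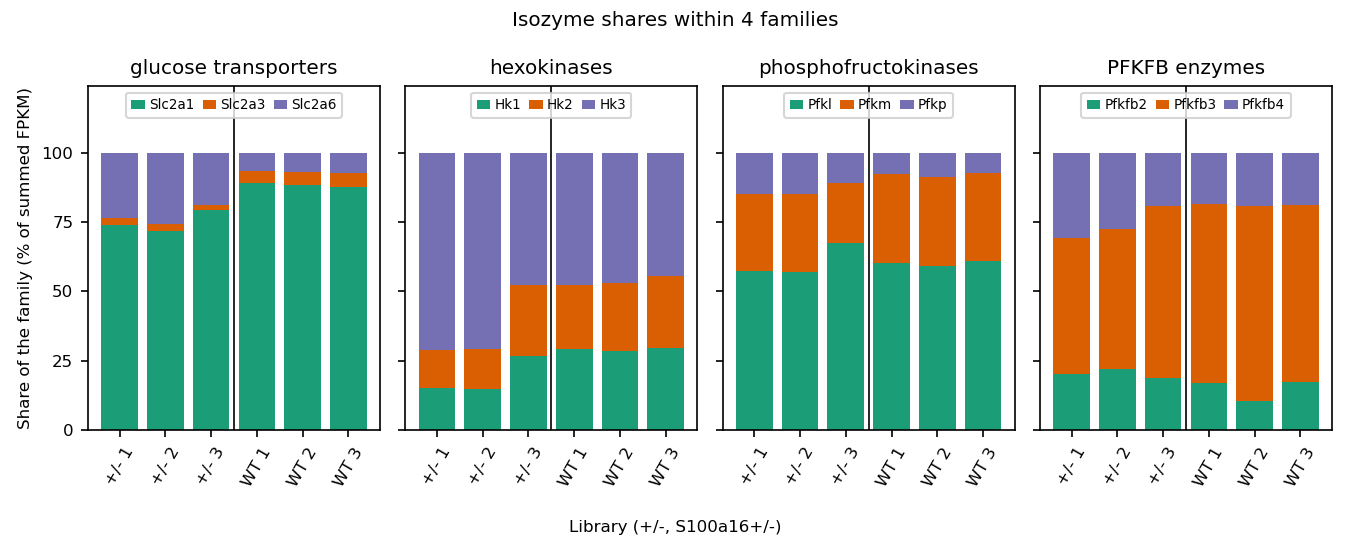
Share of each gene in the summed FPKM of its family (vertical axis, percent) in each library, for the glucose transporters, hexokinases, phosphofructokinases and PFKFB enzymes; S100a16+/- libraries are left of the line in each panel and WT libraries right of it. Slc2a6 takes 18.8% to 25.9% in S100a16+/- libraries, against 6.5% to 7.39% in WT, and Hk3 about 71% in 2 S100a16+/- libraries.

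Across all 34 genes, S100a16+/- replicate 3 was below both other S100a16+/- libraries in 24 and above both in 5. This was not counted over all tested genes, across which that library also differed from replicates 1 and 2 (r = 0.930 and 0.929). The counts therefore cannot be read as particular to these genes. The 34 genes differed in how much of the excess over the WT mean seen in replicates 1 and 2 was also seen in replicate 3. Hk1 (102%), Hk2 (98.3%), Pfkfb2 (92.4%), Rpia (83.4%) and Rpe (78.8%) kept most of it, and Slc2a1 (63.7%), Pfkp (58.0%) and Slc2a6 (56.6%) more than 50%. Pgam1 (41.1%) and Ldha (35.8%) kept less, and Hk3, Pgd, Pgk1 and G6pdx kept 12.2% to 24%. In Aldoa, Aldoc, Gapdh, Pkm, Pgls, Taldo1 and Tkt, S100a16+/- replicate 3 lay below the WT mean. These are the 21 genes called higher without that library. Over the 34 genes the median log2 ratio of CPM to the WT mean was 0.33, 0.31 and 0.04 in S100a16+/- replicates 1 to 3, against -0.05, 0.02 and 0.01 in the WT libraries. In the same S100a16+/- libraries the stellate cell marker list had medians of 0.22, 0.26 and -2.37, and the hepatocyte list -2.91, -3.00 and 2.69. The part of cell markers and sex-linked transcripts in the values of that library was not tested. Of the 34 genes, Pgk1 and G6pdx are on the X chromosome.

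**Figure D5:**
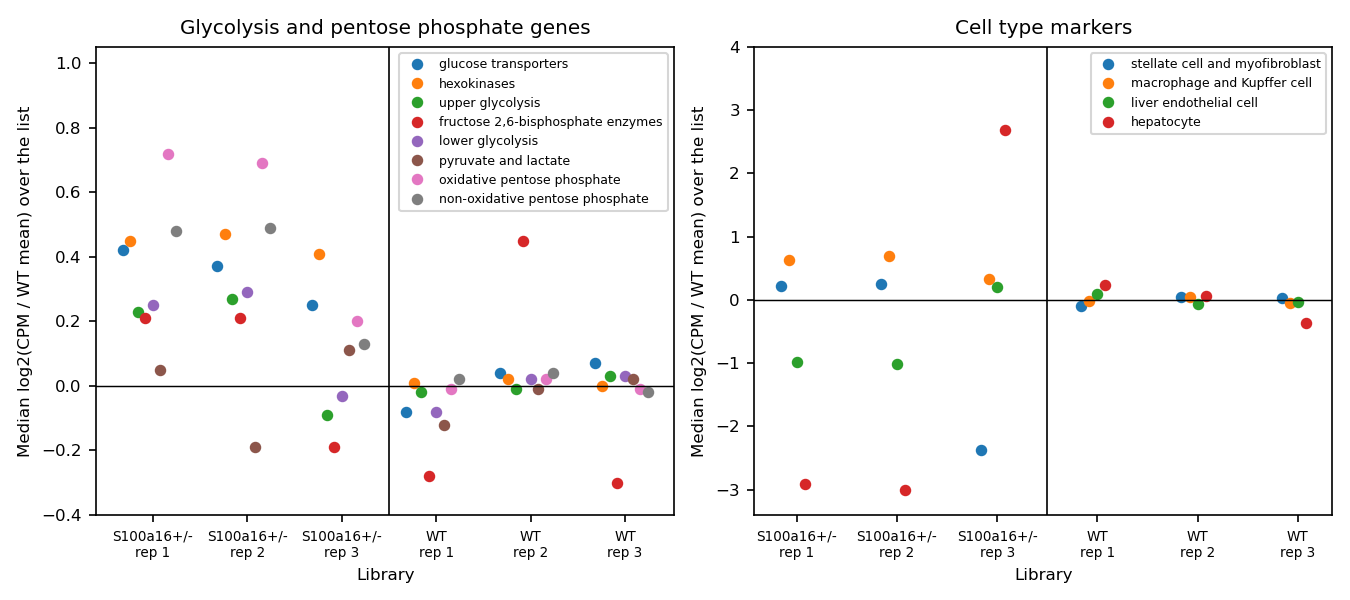
Median log2 ratio of CPM to the WT mean in each library (S100a16+/- left of the line, WT right), for the 8 role groups of the 34 genes (left panel) and for 4 lists of cell type markers (right panel, wider axis). The hexokinases have medians of 0.45, 0.47 and 0.41 in the S100a16+/- libraries, while the oxidative pentose phosphate group has 0.72, 0.69 and 0.20 and the stellate cell markers 0.22, 0.26 and -2.37.

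Related genes outside the 34 were looked at by list. Of all tested genes, edgeR called 2.85% higher and 1.61% lower over 6 libraries, and 15.8% and 16.5% without S100a16+/- replicate 3. Over 6 libraries, 12.4% and 9.54% had an unadjusted p under 0.05, DESeq2 called 8.81% and 5.98%, and limma 1.94% and 1.9%. Of 32 tested genes of glycolysis, pyruvate entry and side branches that are not among the 34, 1 rose over 6 libraries and none fell (edgeR; 5 and 2 at an unadjusted p under 0.05, 3 and 0 by DESeq2, none by limma). The median log2 change of these 32 genes was 0.02, and without S100a16+/- replicate 3 edgeR called 6 of them higher and 4 lower. The 1 that rose was Pgm1, the phosphoglucomutase gene that links glycogen to glycolysis, at 19.1, 19.0 and 19.0 FPKM in S100a16+/- cells, against 15.4, 15.9 and 16 FPKM in WT cells (log2 change 0.33 ± 0.06 SE, edgeR adjusted p = 0.0383). Of 4 tested gluconeogenesis genes 1 fell and none rose by edgeR (1 and 1 at an unadjusted p under 0.05; DESeq2 and limma also called 1 lower), Pcx, the pyruvate carboxylase gene, at 3.21, 3.04 and 3.72 FPKM, against 5.06, 4.98 and 4.65 FPKM in WT cells (log2 change -0.51 ± 0.10 SE, edgeR adjusted p = 0.049). Of 13 further genes of NADPH supply and of glutathione and cystine handling, 3 rose and none fell by edgeR (4 and 2 at an unadjusted p under 0.05, 4 and 1 by DESeq2, 2 and 0 by limma). Without S100a16+/- replicate 3 these were 6 higher and 1 lower by edgeR. Gsr, the glutathione reductase gene that spends the NADPH of the pentose phosphate pathway, was at 64.5, 66.0 and 74.7 FPKM in S100a16+/- cells, against 43.5, 48.0 and 48.6 FPKM in WT cells (log2 change 0.60 ± 0.08 SE, edgeR adjusted p = 0.0218). For Slc7a11, the cystine importer gene, the log2 change was 1.91 (edgeR adjusted p = 0.04), and for Mthfd2, which encodes a mitochondrial folate enzyme that makes reduced nucleotides, it was 0.73 (edgeR adjusted p = 0.0413). Without S100a16+/- replicate 3, Pgm1, Pcx, Gsr, Slc7a11 and Mthfd2 had log2 changes of 0.34, -0.58, 0.55, 2.20 and 0.79, all called by edgeR.

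The lists of regulators held no called gene over 6 libraries. Without S100a16+/- replicate 3 edgeR called 15.8% of all tested genes higher and 16.5% lower. Over 6 libraries 12.4% and 9.54% of all tested genes had an unadjusted p under 0.05, and DESeq2 called 8.81% and 5.98%. Among 15 tested regulators of glycolysis edgeR called none (2 higher and 1 lower at an unadjusted p under 0.05, 1 and 0 by DESeq2, none by limma), and without S100a16+/- replicate 3 it called 1 higher and 3 lower. Nfe2l2, which encodes NRF2, the factor that binds the antioxidant response element, was at 116, 116 and 94.7 FPKM in S100a16+/- cells, against 86.6, 88.8 and 83.2 FPKM in WT cells. Every S100a16+/- library was above WT, and the log2 change of 0.39 (edgeR adjusted p = 0.11) was 0.50 without S100a16+/- replicate 3 (edgeR adjusted p = 0.000689). For Trp53, the p53 gene, the log2 change was -0.22 (edgeR adjusted p = 0.145), and -0.28 with replicate 3 left out (edgeR adjusted p = 0.00794). Of 17 tested hypoxia-induced genes outside glycolysis edgeR called none (0 higher and 1 lower at an unadjusted p under 0.05, 0 and 1 by DESeq2, none by limma), with a median log2 change of -0.04, and 1 was called higher and 7 lower without S100a16+/- replicate 3. Bnip3l and Ero1l had the smallest p of that list, with log2 changes of -0.20 and 0.20 over 6 libraries, and -0.18 and 0.09 without S100a16+/- replicate 3. Of 16 tricarboxylic acid cycle genes edgeR and the other tools called none over 6 libraries, also none at an unadjusted p under 0.05. Their smallest p belonged to Suclg2 and Fh1, with log2 changes of -0.58 and -0.15, and -0.74 and -0.09 without S100a16+/- replicate 3. In that fit 6 of the 16 were called higher and none lower, against 15.8% and 16.5% of all tested genes.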

How the data were processed

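Messenger RNA of 6 libraries, 3 of S100a16+/- and 3 of WT hepatic stellate cells, was measured by RNA sequencing of poly(A) RNA in dUTP-marked paired-end libraries, per the labels' protocols. The authors deposited a whole-number count and an FPKM value per gene and library, per the file headers. The counts are unscaled as deposited. For FPKM the authors divided by gene length and library size, and a count of 0 has the deposited placeholder 0.0001. The submitters' processing notes name, with no role or order, HISAT2 2.0.4, StringTie 1.3.4d, cutadapt 1.9, UMI-tools, edgeR and DESeq2. The authors' genome build was not given in the sources used here. GENCODE M21 (GRCm38) held 99.5% of the gene IDs, 94.2% of them at the same coordinates.

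The test took genes that reached 1 FPKM in 3 or more libraries, and was run on counts with edgeR 4.0.16 (R 4.3.3), TMM scaling and the quasi-likelihood test, genotype being the only term, with Benjamini-Hochberg adjustment over all 12766 tested genes and a threshold of 0.05. Each SE was derived from the log2 change and its F statistic. The 34 genes, the related lists and the cell markers were chosen with earlier results of these data known. All 34 genes are named, and of each related list up to 6 called genes or otherwise the 2 with the smallest p. Isozyme shares used FPKM and exact two-sided permutation tests over libraries. Near-identical copies were found by aligning transcripts of GENCODE M21. Promoters came from RefSeq (GRCm38.p6). Alternatives were DESeq2 1.42.0, limma 3.58.1 on log2(FPKM + 1), with pseudocounts of 0.1 and 5, other scalings, filters and thresholds, each library left out, a block for the replicate number, and, chosen after the data were seen, copies added to their gene. Library totals ran from 61979103 to 76291481 counts.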

Additional observations from a re-analysis of the deposited data

How the results depend on the processing

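Over all tested genes, 364 were called higher and 206 lower. DESeq2 called 1125 higher and 763 lower, limma with a pseudocount of 0.1 called 214 higher, testing without a filter 162 higher and 81 lower, and an adjusted p under 0.1 gave 772 and 466. Library totals without TMM gave 282 higher and 252 lower, and limma on log2(FPKM + 1) 248 and 243, a more even split. Leaving out each library gave 20 to 1990 higher and 5 to 2076 lower. Of the 34 genes, 5 were called higher and 0 lower. The number called higher was 3 with library totals, with filterByExpr and with limma at pseudocounts of 1 and 5, 12 with DESeq2, 1 without a filter, 10 at an adjusted p under 0.1, and 0 to 21 with each library left out. The number called lower was 1 with DESeq2, with limma at a pseudocount of 5 and at an adjusted p under 0.1, and 0 to 2 with each library left out. The cause was not tested.

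Same-numbered libraries did not deviate together (correlations of -0.14, 0.04 and -0.05, and 1 of 6 libraries correlated best with its own number). S100a16+/- replicate 3 stood far from the rest of its group, so this check cannot tell whether the numbers pair the samples. With the replicate number as a block, edgeR called 0 genes higher and 0 lower over all tested genes and 0 of the 34 genes in either direction (11 of the 34 higher and 1 lower at an unadjusted p under 0.05).

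The log2 change turned sign with a library left out in 7 genes that were near 0 over 6 libraries. It ranged over the 6 such fits from -0.09 to 0.00 for Gpi1, -0.15 to 0.05 for Pfkl, -0.05 to 0.07 for Tpi1, -0.11 to 0.05 for Bpgm, -0.07 to 0.08 for Eno1, -0.15 to 0.10 for Slc16a1 and -0.39 to 0.16 for Pdk1. The -0.39 of Pdk1, without S100a16+/- replicate 3, was called lower (edgeR adjusted p = 0.0175). The share of Pfkl among phosphofructokinases was 0.43 points higher in S100a16+/- cells, and -5.13 with CPM in place of FPKM and -2.97 to 2.23 with each library left out. All other log2 changes of the 34 genes kept their sign under every alternative run. The median log2 change over all tested genes was 0.001 over 6 libraries and between -0.059 and 0.003 under the alternatives, being -0.054 with library totals and -0.059 with limma at a pseudocount of 0.1.

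With 3 libraries per genotype and 1 of them apart, changes smaller than the spread of the S100a16+/- group were not detectable over 6 libraries, which says nothing about their absence. Counts of the 34 genes ran from 239 for Aldoc to 150492 for Pkm.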

Other observations

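Further marker lists were summed, with no test of the sums. The 6 cholangiocyte markers summed to 231, 220 and 81.5 FPKM in the S100a16+/- libraries, against 36.1 to 41.9 FPKM in WT, although Krt19 was at 2.75 to 3.18 FPKM in S100a16+/- cells and at 2.76 to 3.05 FPKM in WT cells. The 3 tested markers of this list had median log2 ratios to the WT mean of only 0.16, 0.01 and -0.07 in the S100a16+/- libraries. Over 6 libraries edgeR called 1 of these 3 higher and none lower, against 2.85% and 1.61% of all tested genes. The 7 neutrophil markers summed to 28.4 to 31.5 FPKM, against 16.7 to 19.8 FPKM in WT, with S100a8 at 12.4, 15.0 and 6.58 FPKM, against 0.975, 2.01 and 0.572 FPKM, and S100a9 listed at 0 in all 6 libraries. The 7 T and NK cell markers summed to 2.39 to 6.93 FPKM, against 8.43 to 8.64 FPKM in WT. Cd3e was at 0 in the S100a16+/- libraries and at 0.0126, 0.00767 and 0 FPKM in WT, so it was all but absent in both. The 4 B cell markers summed to 0.405 to 2.74 FPKM, against 2.33 to 2.78 FPKM. The 4 erythroid markers stayed at or below 0.304 FPKM, with Hba-a1 and Hbb-bs listed at 0 in all libraries.

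The 34 genes lay on 15 chromosomes, with 7 of them on chromosome 6. A second entry named Aldoa held at most 22 counts in any library and was not used for its values.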
